A study of Mus musculus with 2 samples.

Results

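The splicing factor genes described here are the transcripts on the array whose names begin with the prefixes Sfrs or Srsf, Hnrp or Hnrnp, Snrp, Sf3a or Sf3b, and Prpf. They were chosen by a rule on names, with earlier results of these data known. Of the 27565 genes on the array, 70 qualified, with 148 probes. The prefixes divide them into 5 subfamilies, with 16 SR genes, 20 hnRNP genes, 13 snRNP genes, 8 SF3 genes and 13 PRPF genes. Current symbols are used below, with the array's older name where they differ and the gene is first described.

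Splicing removes introns from precursor RNA in the spliceosome, a particle assembled anew on each intron. The U1 small nuclear ribonucleoprotein (snRNP) recognises the start of the intron and the U2 snRNP its branch point, where the SF3a and SF3b complexes hold U2 in place. The U4/U6.U5 tri-snRNP, which carries several PRPF proteins, then joins and the catalytic centre forms. SR proteins bind exon sequences through RNA recognition motifs and recruit these particles through domains rich in arginine and serine, while many hnRNP proteins bind the same transcripts and often oppose exon inclusion. In T cells, alternative splicing of Cd45 is a well-known target of hnRNP and SR proteins.

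RNA came from the thymus of Pla2g10-Tg/+ mice, which overexpress group X secreted phospholipase A2 per the labels, and of littermate controls, both on a C57BL/6 background, 6 months old and fed a standard diet. Each genotype was represented by a pool of RNA from 4 mice, and no source used here names the promoter that drives the transgene. Both pools were hybridised together on 2 two-colour Agilent arrays, with the transgenic pool in Cy5 on array 1 and in Cy3 on array 2. The arrays were read as a technical dye swap of 1 pool per genotype, so no p-value is given, except for an alternative test at the end. Each SD below is the spread between the 2 arrays and not between animals, unless it is taken over genes.

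The transgenic pool gave signal well above background at 28.5% to 34.1% of the 41534 transcript spots, and the control pool at 29.0% to 33.2%. The Pla2g10 probe was well above background in 0 of 4 channels, so it does not check the genotype labels, and transgenic below means the pool labelled so. Of the genes on the array, 9394 were tested, meaning that their probe was well above background for at least 1 genotype on both arrays. Each gene is given by its brightest tested probe as a log2 ratio of transgenic over control. Levels are normalised intensities in arbitrary units, which include an offset of 50 added to both channels, so ratios of dim probes are drawn towards 0. They were normalised within each array only, so the pools are compared within an array. A gene was called where its ratio was at least 1.2-fold (0.263 on the log2 scale) in 1 direction on each array.

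Splicing factor RNAs were well represented in this thymus. The test took in 65 of the 70 genes, and all 65 were well above background in 4 of 4 channels, with 0 saturated. Background-subtracted signal of these genes ranged from 27.1 to 11602 around a median of 361, against a median of 91.4 over all tested genes. The genes not tested were Srsf3 (array name Sfrs3), an SR protein, Sf3a2, a subunit of SF3a, Snrpn, a tissue-restricted relative of the Sm protein SmB, Prpf40b and Hnrnpul2 (Hnrpul2). The brightest Srsf3 probe was well above background in 2 of 4 channels and those of the other four in 0, so that these genes have no ratio here.

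By the main settings, splicing factor RNAs differed between the transgenic and control pools about as much and as often as RNAs of the whole array. Srsf6 was the single gene of the 65 that fell by the call, and 0 rose. That is 1.54% called lower, against 1.01% of all 9394 tested genes, and 0% called higher, against 1.48%. In either direction 1.54% of the splicing factor genes were called, against 2.49% of all tested genes. With an offset of 0, 1 of the 65 genes was called higher and 1 lower, against 510 and 351 of the 9394 tested genes. With the deposited log ratios, 1 was higher and 2 lower, against 592 and 417. Under both settings the splicing factor genes were called less often than all tested genes. The splicing factor genes were brighter, with a median signal of 361 against 91.4, and the offset of 50 draws ratios of dim probes towards 0. The share over all tested genes is thus not a background of like brightness, and its part in these counts was not tested. A stricter rule of 2-fold in the mean and 0.5 on each array took 0 of the 65 genes, against 0.0319% of all. The median log2 ratio of the 65 genes was -0.02, against 0.00 for all tested genes, with -0.45 for Srsf6 and 0.39 for Hnrnpdl at the ends. The mean ratio of 61 of the 65 genes, or 93.8%, lay within 1.2-fold, against 94.3% of all tested genes. The 26 genes above 0 and 39 below 0 came from every subfamily.

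The 2 arrays ranked the splicing factor genes differently. Ratios of the 65 genes had a Pearson r of -0.01 and a Spearman rho of -0.03 between the arrays, against 0.31 and 0.24 over all tested genes. These are descriptions across genes that share the same pools, and genes are not replicates. Only 30 of the 65 genes, or 46.2%, had 1 sign on both arrays, against 57.4% of all tested genes. Of these, 14 lay above 0 and 16 below 0 on both arrays, or 21.5% and 24.6%, against 28.3% and 29.1% of all tested genes. The mean ratio was larger than its SD between arrays in 28 of the 65 genes, or 43.1%, against 47% of all tested genes. Array 1 spread the members more widely than array 2, with SDs over genes of 0.25 and 0.16, where all tested genes had 0.19 and 0.16. Splitting the 2 arrays into a genotype part and a dye part gave the splicing factor genes a dye part with an SD over genes of 0.148, as large as that of their mean ratio, 0.146. The dye part is the difference of the arrays over 2 and also holds array noise. Its size beside the mean ratio follows from the r of -0.01 between the arrays. Over all tested genes the dye part was smaller, at 0.102, against 0.139 for the mean ratio.

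**Figure D1:**
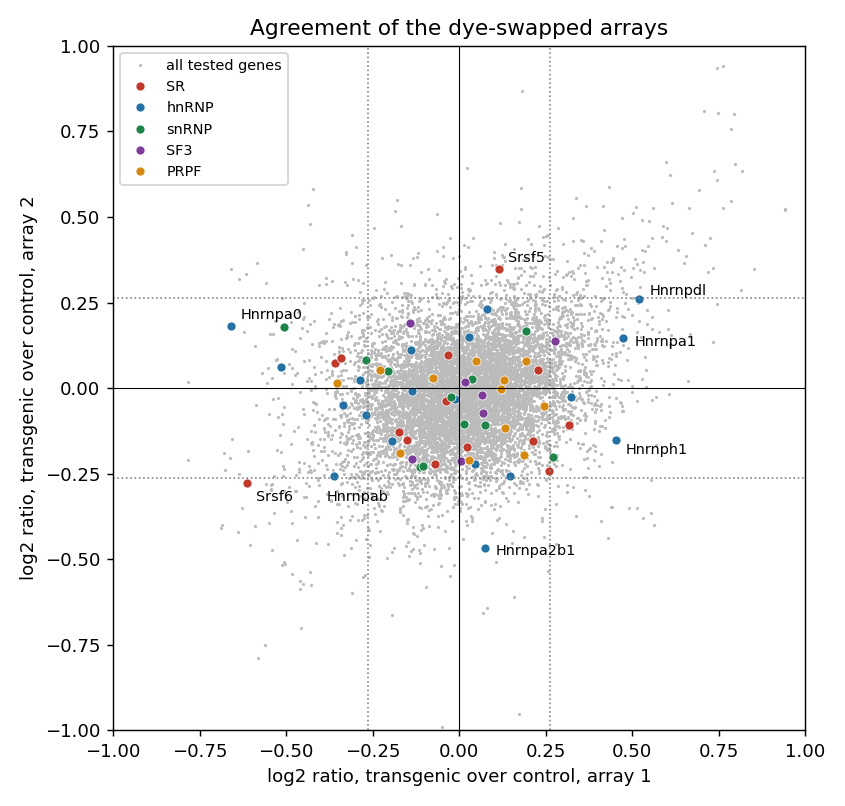
Log2 ratios of transgenic over control on array 1 (horizontal) against array 2 (vertical), with grey points for all tested genes, coloured points for the 65 splicing factor genes by subfamily, and dotted lines at 1.2-fold. The coloured points form no diagonal, and Srsf6 is the only one past 1.2-fold in 1 direction on both arrays.

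Among the SR genes, Srsf6 stood lowest and the classical SR proteins mostly lay below 0. Srsf6 (Sfrs6), an SR protein that regulates exon choice, had normalised levels of 278 and 288 in the transgenic pool on arrays 1 and 2, against 425 and 350 in the control pool. On each array the transgenic value lay below the control value. The log2 ratios were -0.61 and -0.28, with a mean of -0.45 ± 0.24. This probe matches transcript AK004831 at 162626280 to 162626339 of chromosome 2 on mm8.

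The other Srsf6 probe, which matches RefSeq transcript NM_026499, lay above 0. It lies 1915 bases further downstream, at 162628195 to 162628254, and had levels of 188 and 164 in the transgenic pool, against 154 and 139 in the control pool. Its ratio was 0.27 ± 0.04, short of the call because array 2 gave 0.24. The transgenic values were higher at this probe and lower at the brightest one, so the fall was seen at 1 of the 2 Srsf6 probes. The call was lost with the mean of both probes and with median centring in place of loess.

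Srsf2 (Sfrs2), an SR protein known from nuclear speckles and needed for thymic T cell development in mice, was the steadiest of the classical SR genes. Its levels were 700 and 639 in the transgenic pool, against 777 and 710 in the control pool. The ratio was -0.15 on each array (SD 0.0008), under the call. The means of all 4 Srsf2 probes lay below 0, between -0.24 and -0.13, though not every probe kept its sign on both arrays. Srsf7 (Sfrs7), the brightest SR gene, had 1072 and 808 in the transgenic pool, against 1125 and 942 in the control pool, a ratio of -0.15 ± 0.11. The transgenic value was the lower one on both arrays.

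Srsf5 (Sfrs5) was the one classical SR gene above 0. It had 298 and 289 in the transgenic pool, against 276 and 227 in the control pool, with the transgenic value higher on each array. Its ratio of 0.23 ± 0.16 passed 1.2-fold on array 2 alone. Over the 7 classical SR genes tested of 8, the median ratio was -0.14, with -0.15 on each array, and 6 of the 7 means lay below 0. By sign on each array the support was thinner, since 4 of the 7 had 1 sign on both. Srsf1 and Srsf9, picked here after their values were seen, lay at -0.36 and -0.34 on array 1, against 0.07 and 0.09 on array 2.

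The 8 SR-related genes, which share the serine and arginine rich domain or act beside SR proteins, centred near 0. Their median was 0.03, with 0.12 on array 1 and -0.07 on array 2, and 6 of 8 means were above 0. Srek1 (Sfrs12), a regulator of splice site choice, had levels of 162 and 135 in the transgenic pool, against 138 and 131 in the control pool, a ratio of 0.14 ± 0.13. Another Srek1 probe lay below 0 on both arrays, at -0.05 ± 0.04, and the remaining tested one was at 0.03 ± 0.06. Tra2b (Sfrs10), which promotes inclusion of exons with purine-rich enhancers, was at 0.10 ± 0.30 and changed sign between the arrays. Its other probe, nearly as bright, lay above 0 on both arrays, at 0.27 ± 0.12. Scaf4 (Sfrs15), a protein that binds the tail of RNA polymerase II, was lowest at -0.15 ± 0.03. The classical SR median lay below the SR-related median on both arrays, by -0.27 on array 1 and -0.08 on array 2, and this split was examined with the values already known.

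The hnRNP genes had the widest spread of the subfamilies and supplied the genes closest to the call. Over the 19 genes tested of 20, the SD of the mean ratios was 0.19, against 0.14 over all tested genes, and 13 lay below 0. Their dye part was about as wide, with an SD over genes of 0.19, against 0.10 for all tested genes. The hnRNP ratios had r = 0.03 between the arrays. The median was -0.07, with -0.01 on array 1 and -0.03 on array 2. None of the 19 was called.

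Hnrnpdl (Hnrpdl), a paralogue of the RNA-binding protein Hnrnpd, was the highest of all 65 genes. Its levels were 787 and 748 in the transgenic pool, against 548 and 625 in the control pool. On each array the transgenic value exceeded the control value. The ratios were 0.52 and 0.26, with a mean of 0.39 ± 0.18, and array 2 fell just short of the 0.263 needed for a call. The means of its other 3 probes also lay above 0, at 0.06, 0.07 and 0.18, but the probes at 0.07 and 0.18 changed sign between the arrays. It was called higher with an offset of 0, with no background correction and with the deposited log ratios.

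Hnrnpa1 (Hnrpa1), an abundant repressor of exon inclusion, came next. It had 1301 and 1102 in the transgenic pool, against 936 and 996 in the control pool, again higher in the transgenic pool on each array. The ratio was 0.31 ± 0.23, with 0.47 on array 1 and 0.15 on array 2. A dimmer probe, matching transcript AK136113 and 1531 bases downstream, had 457 and 409 in the transgenic pool, against 373 and 302 in the control pool. That probe was past 1.2-fold on both arrays, with a mean of 0.37 ± 0.10. The remaining tested probe was at 0.08 ± 0.20 and changed sign between the arrays. Hnrnpl (Hnrpl), which represses the variable exons of Cd45, was at 0.15 ± 0.11 and above 0 on both arrays.

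Hnrnpab (Hnrpab), a CArG-box and RNA-binding protein, was the brightest hnRNP gene and the lowest. It had 7222 and 6425 in the transgenic pool, against 9277 and 7676 in the control pool. The transgenic value was below the control value on each array. Its ratio was -0.31 ± 0.07, and array 2 stood at -0.26, just inside the call limit. Its other tested probes were at -0.23 and -0.13. It was called lower with the deposited log ratios.

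Hnrnpa0 (Hnrpa0), of the A/B family of hnRNP proteins, and Hnrnpc (Hnrpc), a core protein of hnRNP particles, had low means with no stable sign. Hnrnpa0 had 324 and 378 in the transgenic pool, against 510 and 334 in the control pool, so the order of the pools turned round with the dyes. Its ratios were -0.66 and 0.18, and its second probe gave a mean of -0.27 with an SD of 0.40. Hnrnpc was at -0.51 on array 1 and 0.06 on array 2. Hnrnpa2b1 and Hnrnph1, chosen after their values were seen, showed the same turn with 0.07 and -0.47 for the one, and 0.45 and -0.15 for the other.

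**Figure D2:**
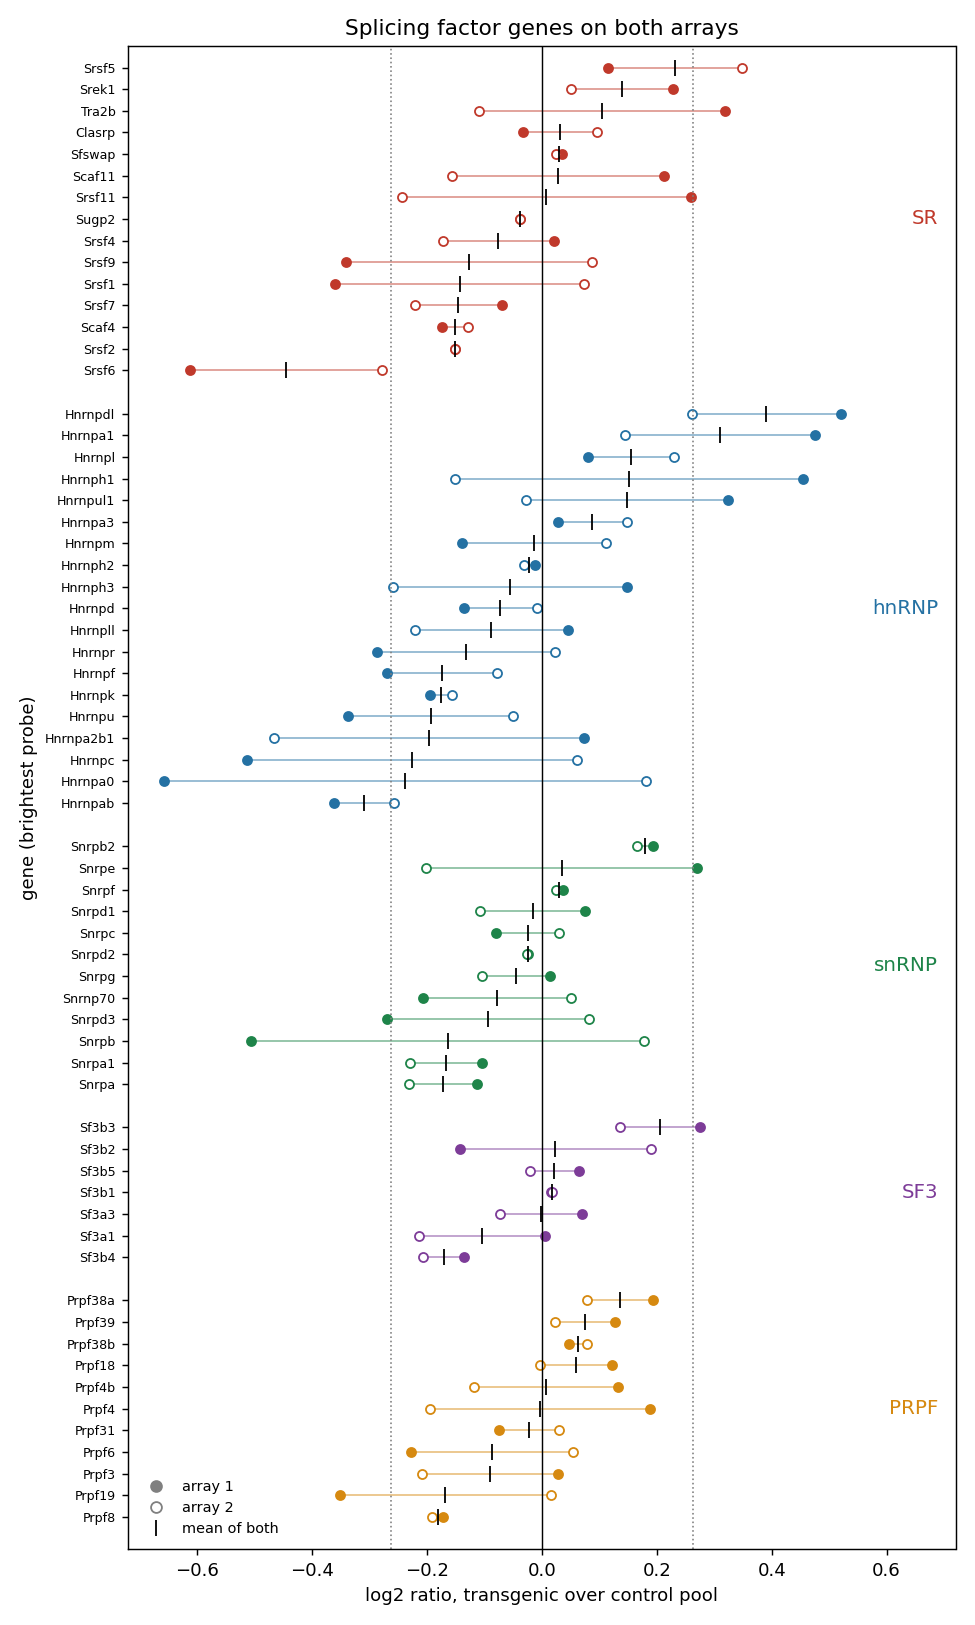
Log2 ratio of transgenic over control (horizontal) for the tested splicing factor genes by subfamily, all but 1 of the 65, with filled points for array 1, open points for array 2, a tick for their mean and dotted lines at 1.2-fold. Srsf6 has both points left of the lower line, Hnrnpdl and Hnrnpab come closest otherwise, and long bars as for Hnrnpa0 join arrays that differ.

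Hnrnpk (Hnrpk), a poly(C)-binding hnRNP protein, gave opposite signs at 2 probes. Its brightest probe, at 58401626 to 58401685 of chromosome 13 on mm8, had 6635 and 5763 in the transgenic pool, against 7593 and 6421 in the control pool, a ratio of -0.18 ± 0.03. The probe 666 bases downstream, matching transcript AK088462, had 1248 and 889 in the transgenic pool, against 843 and 727 in the control pool. That probe was past 1.2-fold on both arrays, with a mean of 0.43 ± 0.19. The remaining tested probe, far upstream, was at -0.07 ± 0.14 and changed sign between the arrays.

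Within the snRNP genes, no change passed the call. Their mean ratios had an SD of 0.10 over 12 genes tested of 13, the same as for the PRPF genes when rounded. On arrays 1 and 2 the SDs over snRNP genes were 0.21 and 0.14, against 0.19 and 0.11 over PRPF genes. The snRNP ratios ran against each other on the arrays, with r = -0.39. The snRNP median was -0.03, with -0.05 on array 1 and 0.00 on array 2. The Sm core proteins, which form the ring around each snRNA, had a median of -0.02 over 7 genes tested of 8, and 5 lay below 0. Snrpe, Snrpf and Snrpb encode the ring proteins SmE, SmF and SmB. Snrpe was at 0.03 ± 0.33 and Snrpb at -0.16 ± 0.48, and both turned sign between the arrays. Snrpf was close to 0 on both, with a mean of 0.03 ± 0.01.

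The 3 U1 genes had a median of -0.08, with -0.11 on array 1 and 0.03 on array 2, and the U2 genes lay on both sides of 0. Snrnp70 (Snrp70), which binds the first stem-loop of U1 RNA, had 2067 and 2001 in the transgenic pool, against 2386 and 1932 in the control pool, and its ratio of -0.08 ± 0.18 crossed 0 between arrays. Snrpa, which binds another stem-loop of U1 RNA, had 640 and 590 in the transgenic pool, against 691 and 693 in the control pool. Its ratio was -0.17 ± 0.08, with both probes below 0. Snrpa1, a protein of the U2 particle, was at -0.17 ± 0.09. Its binding partner in that particle, Snrpb2, lay on the other side of 0, with 1081 and 917 in the transgenic pool, against 945 and 817 in the control pool. Its ratio of 0.18 ± 0.02 was close to equal on the arrays, and its second probe gave 0.12.

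The SF3 genes, whose products anchor U2 at the branch point, centred on 0. The median over 7 genes tested of 8 was 0.02, with 0.02 on array 1 and -0.02 on array 2. Sf3b3 (SF3b130) was highest, with 390 and 334 in the transgenic pool, against 322 and 304 in the control pool. The transgenic value was the higher one on each array, and the ratio was 0.21 ± 0.10. Another of its 3 tested probes was at -0.09. Sf3b4 (SF3b49) was lowest, with 218 and 199 in the transgenic pool, against 239 and 230 in the control pool, a ratio of -0.17 ± 0.05.

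Sf3a3, the brightest SF3 gene, was at 0.00 ± 0.10, Sf3b5 at 0.02 ± 0.06 and Sf3b2 at 0.02 ± 0.24. Sf3a1 was at -0.10 ± 0.15 by its brightest probe, against 0.24 ± 0.06 by a probe 1774 bases downstream that matches transcript AK030115. The downstream probe had 146 and 148 in the transgenic pool, against 127 and 121 in the control pool.

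The PRPF genes also centred on 0, with a median of 0.00 over 12 genes tested of 13, 0.08 on array 1 and 0.01 on array 2. Prpf8, the scaffold protein of the catalytic centre, had 230 and 220 in the transgenic pool, against 259 and 251 in the control pool. On each array the transgenic value was the lower one, and the ratio was -0.18 ± 0.01. Its second probe gave a mean of -0.19 ± 0.41 and changed sign, with -0.48 on array 1 and 0.10 on array 2. The 5 tri-snRNP genes all had means below 0, with a median of -0.09, but Prpf8 alone was below 0 on both arrays. Prpf3, a U4/U6 protein, was at -0.09 ± 0.17, and Prpf31, the brightest PRPF gene and another U4/U6 protein, at -0.02 ± 0.07.

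Among the other PRPF genes, Prpf19, the ubiquitin ligase of the complex that activates the spliceosome, was at -0.17 ± 0.26. Prpf38a, which joins the spliceosome with the tri-snRNP, had 302 and 247 in the transgenic pool, against 264 and 234 in the control pool, a ratio of 0.14 ± 0.08. Prpf39, whose yeast counterpart is a U1 snRNP component, was at 0.08 ± 0.07.

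The 5 subfamily medians of the mean ratios ranged between -0.07 for hnRNP genes and 0.02 for SF3 genes, but their order differed by array. Array 1 ran from -0.05 for snRNP genes to 0.08 for PRPF genes, and array 2 from -0.11 for SR genes to 0.01 for PRPF genes. The SR median was below the PRPF median by -0.12 on each array. On the mean of both arrays the difference between these medians was -0.04. The SR median lay below the hnRNP median, and the SF3 median below the PRPF median, on each array. By mean ratios both differences turned above 0, at 0.03 and 0.02. Of the 10 pairs of subfamilies, the SR against snRNP, hnRNP against snRNP and snRNP against SF3 pairs changed sign between the arrays. No test was made, since each pool was 1 sample and genes are not replicates.

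**Figure D3:**
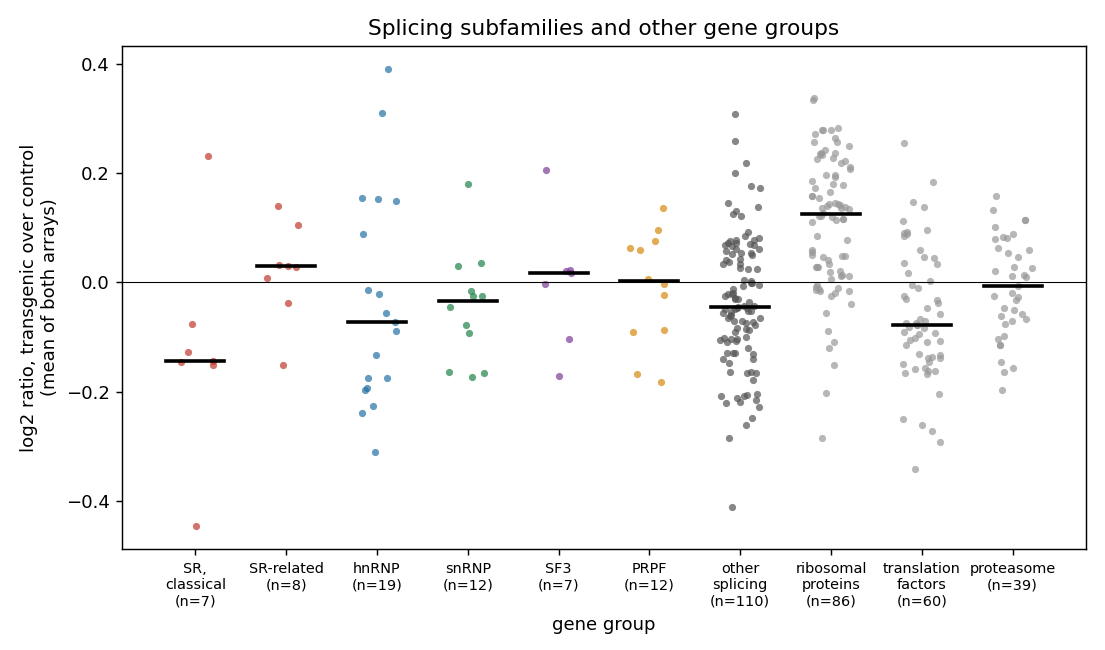
Mean log2 ratio (transgenic over control) over the 2 arrays for each gene (points), and the median (bar), of the SR genes in their 2 classes, the other splicing factor subfamilies, further splicing genes, ribosomal proteins, translation factors and proteasome subunits. Medians of the splicing subfamilies lie near 0, that of the classical SR genes at -0.14 and that of the ribosomal proteins at 0.12.

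Several probes of 1 gene give a second reading of that gene. Some match different transcripts, as for Srsf6 and Hnrnpk, and whether such probes read the same RNA was not tested. Of the 65 genes, 36 had 2 or more tested probes, and in 11 of these the probes had mixed signs. Ratios of the brightest and the next brightest probe had a Pearson r of 0.37 and a Spearman rho of 0.50 over the 36 genes, and 26 shared a sign. The dye part was repeated to a like degree, with r = 0.48 and rho = 0.40. The probes share pools, dyes and arrays, so these are descriptions. The widest ranges between probes were 0.71 for Srsf6 and 0.60 for Hnrnpk. A gene with 1 probe called higher and another called lower was found in 0 of the 36, against 0.0866% of the 2309 genes with 2 or more tested probes.

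**Figure D4:**
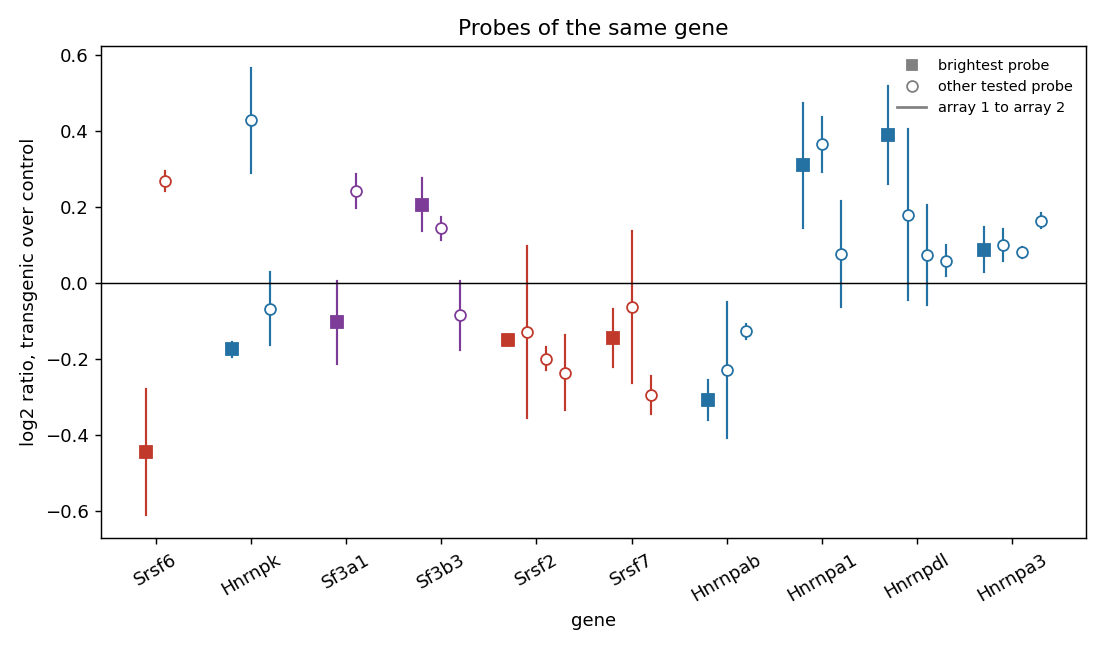
Log2 ratios of transgenic over control for each tested probe of 10 splicing factor genes, with squares for the brightest probe, open circles for the others and vertical lines joining array 1 to array 2. The probe means of Srsf6, Hnrnpk, Sf3a1 and Sf3b3 fall on both sides of 0, while those of Srsf2, Hnrnpab, Hnrnpa1, Hnrnpdl and Hnrnpa3 stay on 1 side.

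Splicing genes outside the name prefixes were read beside them. Of 125 listed, 110 were tested, with 1 called higher and 1 lower, or 1.82%, near the 2.49% of all tested genes. The median was -0.04, with 40 above and 70 below 0. Pcbp1, a poly(C)-binding relative of Hnrnpk, fell, with 1193 and 1123 in the transgenic pool, against 1735 and 1365 in the control pool, a ratio of -0.41 ± 0.18. Ptbp2, a polypyrimidine tract-binding repressor, rose, with 137 and 110 in the transgenic pool, against 107 and 91.4 in the control pool, a ratio of 0.31 ± 0.06. Its relative Ptbp3 was at 0.22 ± 0.02 and Lsm5, of the Sm-like ring of U6, at 0.26 ± 0.03. Elavl1, which binds AU-rich RNA, was at -0.28 ± 0.03 and Eif4a3, of the exon junction complex, at -0.26 ± 0.09.

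By class, the 59 partners of the spliceosome had a median of -0.02, the 6 SMN assembly genes 0.00, the 14 kinase and exon junction genes -0.05, and the 31 further regulators -0.09. For scale, ribosomal protein genes had a median of 0.12 over 86 genes, translation factors -0.08 over 60 and proteasome subunits -0.01 over 39.

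The make-up of the thymus differed between the pools by marker genes, and its part in the splicing factor ratios was not tested. In whole tissue, fewer cells of a type and less RNA per cell cannot be told apart. All 11 T lineage markers listed were tested, with a median of -0.16, and Thy1, of the thymocyte surface, was called lower at -0.34 ± 0.09. Bcl11b, a transcription factor of T cell commitment, was at -0.40 ± 0.36. The 6 mature T cell markers tested of 7 had a median of 0.19, with Ms4a4b at 0.67 ± 0.17 and called higher, against Klf2 at -0.54 ± 0.20 and called lower. Of 14 immature thymocyte markers tested of 15, 6 were called lower, with a median of -0.32. Their summed level was 27889 and 24724 in the transgenic pool, against 34764 and 31052 in the control pool. Ccr9 was at -0.53 ± 0.10 and Cd8a at -0.51 ± 0.00. The 20 proliferation markers had a median of -0.10, with Plk1 called lower, at -0.38 ± 0.09, and Cdk1 at -0.29 ± 0.08. All 6 adipocyte markers tested of 10 were called higher, with a median of 0.75, and their summed level was 1885 and 1625 in the transgenic pool, against 1090 and 931 in the control pool. Cfd, Car3, Cidea and Cidec were well above background in 2 of 4 channels, so they passed the filter through 1 genotype alone. The count and median of these markers therefore lean on the filter. Fabp4 and Lpl were well above background in 4 of 4 channels, at 0.78 ± 0.04 and 0.38 ± 0.03. Cfd, of fat cells, was at 1.61 ± 0.01 and Car3 at 0.80 ± 0.00. Medians were also above 0 for erythroid (0.85 over 3 genes), neutrophil (0.37 over 5), medullary epithelial (0.33 over 5), fibroblast (0.30 over 4) and dendritic cell markers (0.26 over 4).

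The promoters of splicing factor genes are given for the genes at the ends of the range, namely the lowest 2, Srsf6 and Hnrnpab, and the highest 2, Hnrnpdl and Hnrnpa1. Each is the RefSeq GRCm38.p6 sequence from 250 bases before to 50 after the start of the gene, read in the direction of the gene. Capitals mark GGGCGG, bound by Sp1 and its relatives, the CCAAT box, and the letters TATAAA of the TATA box, or their reverse complements where the match is on the other strand. The positions are chr2:162931258-162931557 on the plus strand for Srsf6, chr11:51606832-51607131 on the minus strand for Hnrnpab, chr5:100039173-100039472 on the minus strand for Hnrnpdl and chr15:103240147-103240446 on the plus strand for Hnrnpa1.
Srsf6: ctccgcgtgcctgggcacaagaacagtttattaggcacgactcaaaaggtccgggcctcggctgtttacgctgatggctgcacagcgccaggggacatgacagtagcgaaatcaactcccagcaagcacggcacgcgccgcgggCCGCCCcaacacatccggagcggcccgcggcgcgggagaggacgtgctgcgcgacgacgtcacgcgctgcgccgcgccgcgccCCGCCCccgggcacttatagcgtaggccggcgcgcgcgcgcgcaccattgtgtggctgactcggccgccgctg
Hnrnpab: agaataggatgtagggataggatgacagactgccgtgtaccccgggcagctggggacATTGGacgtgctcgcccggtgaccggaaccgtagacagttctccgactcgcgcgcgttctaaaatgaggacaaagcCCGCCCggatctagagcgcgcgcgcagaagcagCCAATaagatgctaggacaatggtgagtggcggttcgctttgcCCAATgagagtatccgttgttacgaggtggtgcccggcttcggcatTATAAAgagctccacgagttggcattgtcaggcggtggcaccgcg
Hnrnpdl: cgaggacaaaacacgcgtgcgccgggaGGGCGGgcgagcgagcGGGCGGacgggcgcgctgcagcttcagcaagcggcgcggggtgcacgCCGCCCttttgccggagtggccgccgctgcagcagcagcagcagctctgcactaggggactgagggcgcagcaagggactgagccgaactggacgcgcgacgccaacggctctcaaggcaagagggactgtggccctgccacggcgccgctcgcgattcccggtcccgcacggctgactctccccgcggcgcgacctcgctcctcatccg
Hnrnpa1: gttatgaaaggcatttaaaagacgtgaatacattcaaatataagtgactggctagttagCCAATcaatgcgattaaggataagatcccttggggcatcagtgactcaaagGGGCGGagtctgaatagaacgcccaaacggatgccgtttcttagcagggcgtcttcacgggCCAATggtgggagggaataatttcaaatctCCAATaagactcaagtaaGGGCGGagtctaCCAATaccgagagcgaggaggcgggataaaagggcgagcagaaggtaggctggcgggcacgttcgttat
The Srsf6 and Hnrnpdl promoters are rich in G and C, with 70.0% and 72.7%, against 58.3% for Hnrnpab and 48.3% for Hnrnpa1. Hnrnpab holds 3 CCAAT matches and Hnrnpa1 holds 4, while Srsf6 and Hnrnpdl hold none. TATAAA is present in Hnrnpab alone of the 4.

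As a group, promoters of splicing factor genes are CpG-rich. Of the 70 genes, 62 have a promoter in the table, with a median of 60.0% G and C and 25 CpG pairs, against 56.3% and 13 over the promoters of protein-coding genes. The letters CCGGAAG, bound by ETS factors, are present on either strand in 21 of 62, or 33.9%, against 11.9% of 17492 protein-coding promoters. GGGCGG is present in 42, or 67.7%, against 46.3%, and CCAAT, bound by NF-Y, in 27, or 43.5%, against 39%. TATAAA is present in 6, or 9.68%, against 13.3%. The 20 tested genes with CCGGAAG had a median log2 ratio of 0.00, with a range of -0.17 to 0.23, and the 38 without it a median of -0.05, with a range of -0.45 to 0.39.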

How the data were processed

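Per the file headers, Feature Extraction 9.5.1.1 made the deposited scanner files, whose mean and background intensity columns are linear and uncorrected. The deposited log10 ratios of red over green processed signal were an alternative, and the deposited p-value columns of the software's error model were not used, per the file headers. Other steps of the authors are not stated.

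Mean signals were background-corrected with normexp (offset 50) and loess-normalised array by array, control and outlier spots having weight 0 (limma 3.58.1, R 4.3.3). Outlier spots (46 on array 1, 37 on array 2) were dropped. Array 2 was turned, so ratios read transgenic over control. The labels do not say whether the arrays hold separate pools.

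Probes took names from a RefSeq table (GRCm38.p6), by accession for 23376, symbol for 6665 and synonym for 2860. All 70 member names had a current symbol, and 37 of these differ from the array's. Probe positions are on mm8, per the file headers, with no annotation of that build used.

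Named members are, per subfamily, the 3 highest, the 3 lowest and the brightest, plus called genes and genes with probes of opposite sign of which 1 was called. From the further splicing genes the 3 highest and 3 lowest are named, and marker lists give their median and, in the main lists, members of largest absolute ratio. A member that this rule takes is not reported here. The members and all lists were chosen with earlier results of these data known. The turning of array 2 and the call rule were tested on simulated dye-swapped arrays, but background correction, loess and the choice of probe were not. With 2 arrays, their number limits the precision.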

Additional observations from a re-analysis of the deposited data

How the results depend on the processing

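Each array holds both genotypes, so every ratio is already a paired difference within an array. No pairing of animals was possible, since the arrays were read as 1 pool per genotype. Under alternatives that keep both arrays, 33 of 272 values of the 34 named genes moved by more than the SD between arrays. The sign changed for 9 of these 272, none of them of a called gene: Hnrnpk (0.06) and Sf3a1 (0.07) with the mean of all probes, Sf3b2, Sf3b5, Snrpe and Snrpf with median centring, and Sf3a3, near 0, in 3. With 1 array alone, 14 of the 34 changed sign, among them Hnrnpa0 (0.18), Hnrnpc (0.06) and Snrpb (0.18) on array 2. The Srsf6 call was lost with median centring in place of loess and with the mean of all its probes, which includes the probe above 0, leaving 0 members lower in both. With an offset of 0, or with no background correction, 1 member was higher, Hnrnpdl. With the software's log ratios or the series table, 1 was higher, Hnrnpdl, and 2 lower, Srsf6 and Hnrnpab. A rule of 2-fold in the mean called 0 lower. A rule of 1.1-fold on each array, chosen after seeing the data, called 3 higher (Hnrnpa1, Hnrnpdl and Snrpb2) and 5 lower (Srsf6, Hnrnpab, Hnrnpk, Prpf8 and Srsf2), against 6.32% and 5.24% of all tested genes.

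limma's moderated test, which treats arrays of the same pools as separate measurements and so gives p-values that are too small, called 1 member higher (Hnrnpdl, adjusted p = 0.0492) and 1 lower (Srsf6, adjusted p = 0.0304), against 0.99% higher and 0.617% lower of all tested genes. At an unadjusted limma p under 0.05 there were 4 higher and 2 lower, against 6.79% and 5.64% of all.

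Calls over all tested genes were 510 higher and 351 lower with an offset of 0, 592 and 417 with either set of deposited log ratios, and 13 and 3 with median centring, against 139 and 95. Median centring moved the median of the members to -0.0844, of hnRNP genes to -0.136, snRNP genes to -0.0963, SF3 genes to -0.0386 and further splicing genes to -0.0899, where that of all tested genes moved to -0.0349. The mean of all probes gave -0.0552 for hnRNP and -0.0256 for further splicing genes, which stood at -0.0406 with no background correction. The cause of these shifts was not tested. With either array alone, 1 to 7 of the 65 members were higher and 2 to 12 lower, against 347 to 768 and 410 to 594 of the 9394 tested genes. The 7 and 12 came from array 1, where members were called more often than all tested genes in both directions. The medians ran from -0.0256 to 0.015 for the members, -0.109 to -0.0323 for SR, -0.0267 to -0.0116 for hnRNP, -0.0213 to 0.0168 for SF3, 0.0065 to 0.0846 for PRPF, -0.0519 to -0.0002 for snRNP and -0.0486 to -0.0435 for further splicing genes. Signal near background limits Srsf3, Sf3a2, Snrpn, Prpf40b and Hnrnpul2, and the 2 arrays measure no difference between animals.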
